A study of Mus musculus with 3 samples.

Results

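MHC class I presentation genes were examined as a group of 10 genes among the 31053 genes of the count tables, chosen by name: the heavy chains H2-K1, H2-D1, H2-Q7 and H2-T23, their light chain B2m, the peptide transporter subunits Tap1 and Tap2, the loading factor Tapbp, the transcriptional regulator Nlrc5 and the immunoproteasome subunit Psmb9. The choice was made with earlier results of these data known. The data are 3 droplet single-cell RNA-seq libraries of live cells sorted from brain tissue around a glioblastoma, 1 from vehicle-treated mice (labelled control replicate 2) and 2 from niacin-treated mice (replicates 1 and 2). All mice were female C57BL/6 of 6 to 8 weeks carrying BTIC0309 cells, a brain tumor-initiating line from NPcis mice marked with luciferase and GFP, in the right striatum. Niacin was injected at 100 mg/kg daily from day 7, vehicle mice received saline, and tissue was taken at 4 weeks. By the methods the vehicle library pools 5 mice and the niacin libraries pool 10 mice between them, whereas the sample labels describe a smaller pool, so each library is 1 pooled sample of tumor and surrounding brain from a single tumor line.

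MHC class I molecules carry peptides of cytosolic proteins to the cell surface, where CD8+ T cells read them. The proteasome cuts the proteins, Tap1 and Tap2 move the peptides into the endoplasmic reticulum, and Tapbp (tapasin) holds the empty heavy chain with B2m at the transporter until a peptide is bound. Nlrc5 is the transactivator that drives most of these genes, interferons raise them, and resting microglia, the resident phagocytes of the brain, are known for low levels.

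In the GRCm38 annotation 8 of the 10 genes lie on chromosome 17, between the start of Tapbp at 33915899 and the end of H2-T23 at 36032855. B2m lies on chromosome 2 (122147686 to 122153083) and Nlrc5 on chromosome 8 (94434356 to 94527272). Tap1 (34187553 to 34197225) and Psmb9 (34181987 to 34187764) are read in opposite directions from start regions that overlap. The RefSeq promoter table lists a window of 250 bases before to 50 after the start for 8 of the 10 genes. The windows were searched on both strands for CCAAT (the CCAAT box), TGACG (the core of the cAMP response element, which the X2 box of MHC promoters resembles), TTCNNNGAA (GAS, the gamma-activated site) and the core of the interferon-stimulated response element (ISRE). CCAAT was found in 8 of 8 windows, against 37.9% of the windows of 27025 genes, TGACG in 6 of 8 against 21.0%, the ISRE core in 2 of 8 (B2m and H2-T23) against 3.49% and TTCNNNGAA in 0 of 8 against 8.47%. The windows of Tap1 and Psmb9 overlap, and the CCAAT and TGACG matches counted for both genes are the same letters. The 8 windows are therefore not 8 separate sequences. Such matches are descriptions of the letters, and no binding was measured.

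The sequence between the RefSeq starts of Psmb9 and Tap1 and the 250 bases before the starts of H2-K1, H2-D1 and B2m are printed because these genes carry class and treatment differences described below and because Tap1 and Psmb9 share a start region. Capitals mark the motif matches on either strand (ATTGG is CCAAT read on the other strand), in RefSeq sequence of GRCm38.p6.
Psmb9 to Tap1, chr17:34187331-34187555, plus strand: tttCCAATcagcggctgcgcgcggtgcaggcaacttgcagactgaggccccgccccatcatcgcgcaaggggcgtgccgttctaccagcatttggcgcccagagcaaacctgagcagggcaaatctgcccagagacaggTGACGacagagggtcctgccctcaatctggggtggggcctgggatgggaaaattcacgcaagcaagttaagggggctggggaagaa
H2-K1, chr17:34000348-34000597, minus strand: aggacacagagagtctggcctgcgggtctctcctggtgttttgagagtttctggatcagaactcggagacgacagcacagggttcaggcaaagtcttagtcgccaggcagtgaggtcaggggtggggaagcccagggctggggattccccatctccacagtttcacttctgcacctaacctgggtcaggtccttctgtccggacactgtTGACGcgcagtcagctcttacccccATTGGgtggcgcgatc
H2-D1, chr17:35262844-35263093, plus strand: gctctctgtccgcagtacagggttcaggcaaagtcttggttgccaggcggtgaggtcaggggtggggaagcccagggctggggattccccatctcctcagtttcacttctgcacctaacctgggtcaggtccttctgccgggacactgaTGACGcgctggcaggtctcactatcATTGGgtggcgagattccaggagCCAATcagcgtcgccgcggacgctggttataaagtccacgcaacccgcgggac
B2m, chr2:122147437-122147686, plus strand: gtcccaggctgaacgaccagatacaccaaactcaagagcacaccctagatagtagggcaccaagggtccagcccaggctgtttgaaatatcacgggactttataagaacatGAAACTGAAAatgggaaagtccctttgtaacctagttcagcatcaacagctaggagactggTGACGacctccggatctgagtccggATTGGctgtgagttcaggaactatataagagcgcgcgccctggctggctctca
In each of the 3 windows of the heavy and light chains, TGACG lay ahead of an ATTGG, and 36 bases followed it to the end of the window in H2-K1, 96 in H2-D1 and 73 in B2m.

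The libraries held 2270 barcodes (vehicle), 2145 (niacin replicate 1) and 2532 (niacin replicate 2) with 8301228, 9373321 and 10359526 UMIs, that is, unique molecular identifiers, each a captured RNA molecule. Filters of 200 or more genes and no more than 20% of UMIs from mitochondrial genes kept 5528 of 6947 barcodes. A total of 924 barcode sequences occurred in more than 1 library (21.3% of vehicle barcodes, 42.8% and 35.5% of niacin barcodes), and 760 of them had at least 90% of their UMIs in 1 library. These barcodes were left out of every library, which left 3478 cells (1090, 987 and 1401), and counts of calls with them kept are given beside the counts without them. The only vehicle library also stood apart in mitochondrial UMIs, with a median of 8.85% per barcode against 3.08% and 3.29%. Within the cells used the medians were 3.22%, 2.08% and 2.51% in microglia and 8.27%, 4.53% and 2.90% in infiltrating phagocytes. In T cells they were 6.57%, 10.1% and 4.77%.

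Cells were assigned by the UMIs of marker genes, none of which is a class I gene, and the resulting classes are called microglia-like and so on, written here without the suffix. Microglia numbered 392, 646 and 946 cells (vehicle, niacin replicates 1 and 2, the order used throughout), infiltrating phagocytes 210, 40 and 48, T cells 168, 94 and 122, neutrophils 58, 31 and 28 and choroid plexus cells 27, 49 and 96. In microglia the 11 microglia markers summed to 19926 to 24140 CPM (UMIs per 1000000 UMIs of the class) and the 17 infiltrating phagocyte markers to 130 to 280 CPM. In infiltrating phagocytes the same lists summed to 280 to 462 CPM and 5030 to 9254 CPM. The rule left 282 cells unassigned.

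Class I presentation RNA was abundant in infiltrating phagocytes and T cells, lower in microglia and lowest of these classes in choroid plexus cells. Together the 10 genes took 15760, 13131 and 13012 CPM of infiltrating phagocytes, 12368, 11907 and 11671 CPM of T cells and 8060, 4195 and 4790 CPM of microglia. In neutrophils they took 13409, 5459 and 4405 CPM, and in choroid plexus cells 1633, 520 and 563 CPM. The phagocyte and T cell libraries all lay above the microglia libraries, while neutrophils ranged from the level of phagocytes in the vehicle library to that of microglia in the niacin libraries. NK cells, with 11547, 15296 and 11582 CPM from 51, 5 and 11 cells, were near T cells, and B cells, with 7579, 5560 and 5358 CPM, were near microglia. The 5 erythroid cells, a type that loses these genes as it matures, held 1 UMI of H2-D1, 1 of Tapbp and none of the other 8 genes among 45231 UMIs, a mean of 42.4 CPM for the 10 genes. These few cells do not set the background of other classes. Microglia markers summed to 188, 190 and 244 CPM in T cells and to 307, 273 and 301 CPM in choroid plexus cells. Infiltrating phagocyte markers summed to 792, 430 and 306 CPM in choroid plexus cells. The part of background UMIs in the class I levels was not tested. The CPM values of the 10 genes are not corrected for gene length, so they compare classes within a gene and not genes with each other.

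**Figure D1:**
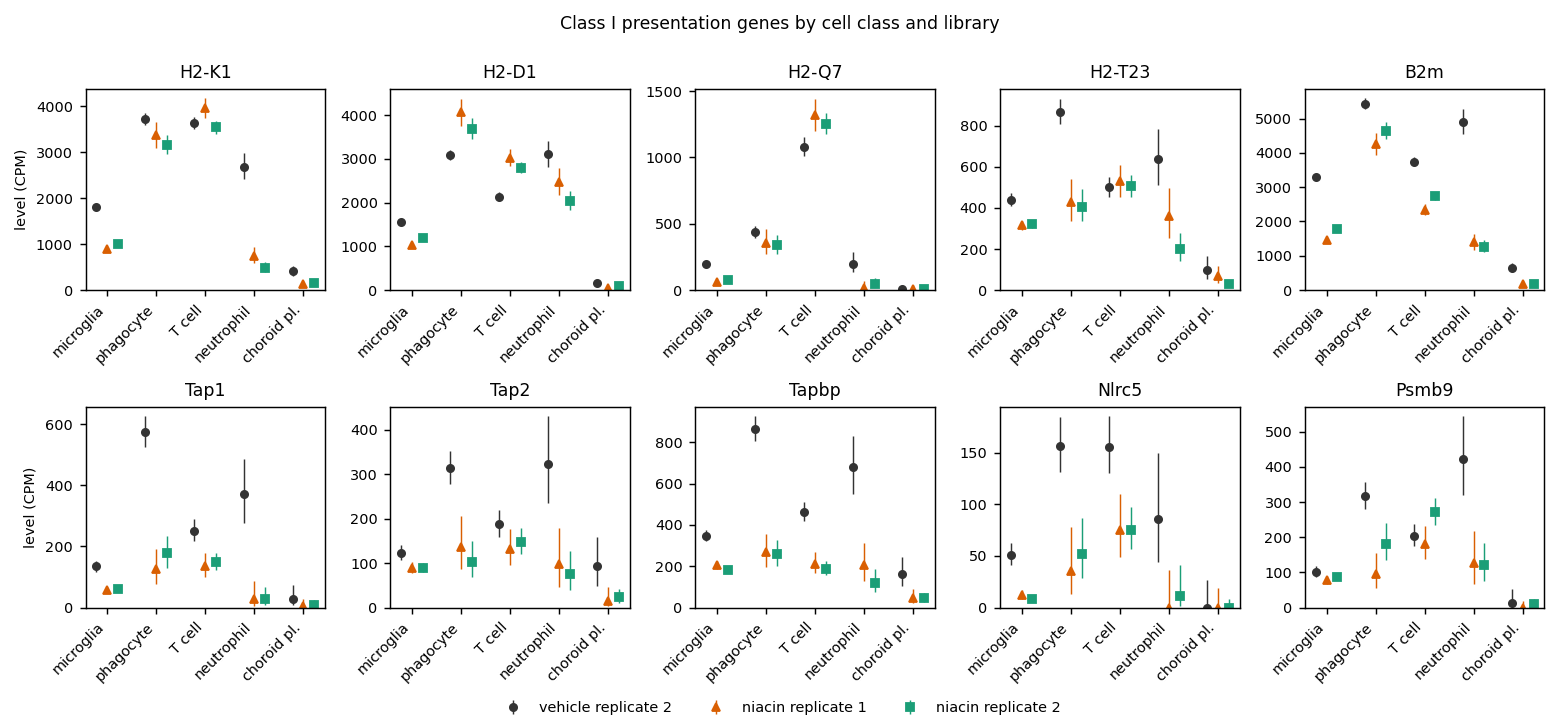
Level in CPM (UMIs per 1000000 UMIs of the class, linear axis from 0) of each of the 10 genes in 5 cell classes, with 1 point per library and exact Poisson 95% intervals that cover counting error only. H2-K1 lies between 3162 and 3959 CPM in all phagocyte and T cell libraries and at 1816 CPM or below in all microglia libraries, and Nlrc5 is at 0 in all choroid plexus libraries.

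The heavy chains H2-K1 and H2-D1, the classical molecules that present peptide in this strain, separated microglia from both other classes. H2-K1 was at 1816, 898 and 1001 CPM in microglia, at 3724, 3372 and 3162 CPM in infiltrating phagocytes and at 3638, 3959 and 3544 CPM in T cells. Its mean of 1238 ± 503 CPM in microglia (SD, n = 3) stood against 3419 ± 283 CPM in phagocytes and 3714 ± 217 CPM in T cells, and the libraries did not overlap. H2-D1 was at 1561, 1025 and 1186 CPM in microglia, at 3079, 4062 and 3688 CPM in phagocytes and at 2138, 3027 and 2801 CPM in T cells. Again no microglia library reached the lowest library of the other classes. H2-K1 was lower in microglia than in phagocytes by a log2 fold change of -1.49 (SE 0.29, adjusted p = 0.000235, from edgeR's quasi-likelihood model that has the library as a block, with Benjamini-Hochberg adjustment), and H2-D1 by -1.47 (SE 0.25, edgeR adjusted p = 5.52e-05).

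H2-Q7, a Qa-2 molecule of the nonclassical class I family, differed widely between classes. It was at 1081, 1317 and 1254 CPM in T cells, at 434, 357 and 337 CPM in phagocytes, at 195, 59.3 and 79.8 CPM in microglia and at 7.13, 10.5 and 6.95 CPM in choroid plexus cells. The 4 classes did not overlap in any library. T cells exceeded phagocytes by a log2 fold change of 1.97 (SE 0.34, edgeR adjusted p = 6.15e-05, a direction in which 16.4% of genes passed). They exceeded microglia by 3.80, or 13.9-fold (SE 0.36, edgeR adjusted p = 4.31e-09). H2-T23, which encodes Qa-1, the ligand of the NK receptor CD94-NKG2A, differed less: its means were 568 ± 261 CPM in phagocytes, 512 ± 15.0 CPM in T cells, 400 ± 220 CPM in neutrophils and 359 ± 71.2 CPM in microglia (SD, n = 3), and no step between neighbours in that order passed the test.

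B2m, the light chain that every class I heavy chain needs, was at 3288, 1453 and 1776 CPM in microglia, 5429, 4252 and 4646 CPM in phagocytes, 3747, 2340 and 2734 CPM in T cells and 649, 184 and 185 CPM in choroid plexus cells. Microglia of the vehicle library overlapped with T cells of the niacin libraries but not with phagocytes. The difference between microglia and phagocytes was -1.18 (log2, SE 0.26, edgeR adjusted p = 0.000656) and that between microglia and T cells -0.65 (SE 0.25, edgeR adjusted p = 0.0377). Without niacin replicate 1 or 2 the latter was -0.55 or -0.53 and no longer passed. B2m UMIs per UMI of H2-K1 plus H2-D1 were 0.974, 0.755 and 0.812 in microglia, against 0.649, 0.335 and 0.431 in T cells. The ratio was thus higher in microglia in each of the 3 libraries, and in both classes it was highest in the vehicle library.

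Among the transport and loading genes, Tap1 was at 135, 58.0 and 61.1 CPM in microglia, 575, 125 and 178 CPM in phagocytes and 252, 135 and 148 CPM in T cells. Microglia lay below both classes within each library, although vehicle microglia were as high as T cells and higher than phagocytes of niacin replicate 1. Tap2 was at 123, 89.7 and 89.3 CPM in microglia and 313, 137 and 104 CPM in phagocytes, and Tapbp at 348, 207 and 181 CPM and 864, 268 and 259 CPM. Phagocytes lay above microglia within each library for both genes, but for Tap2 in niacin replicate 2 and for Tapbp in both niacin libraries they lay below vehicle microglia. Against phagocytes, Tap1 differed by -1.59 (log2, SE 0.33, edgeR adjusted p = 0.000439) and Tapbp by -0.70 (SE 0.26, edgeR adjusted p = 0.0345), and Tap2 did not pass at -0.72 (SE 0.30, edgeR adjusted p = 0.058). The call for Tapbp was lost when any 1 of the libraries was left out, with values of -0.40 without the vehicle library and -0.98 and -0.85 without niacin replicates 1 and 2.

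Nlrc5, the class I transactivator, was at 50.9, 11.9 and 8.44 CPM in microglia, 156, 35.7 and 51.8 CPM in phagocytes, 156, 74.7 and 74.9 CPM in T cells and 0 CPM in all choroid plexus libraries. T cells exceeded microglia within each library, and no microglia library reached the lowest T cell library. Microglia differed from T cells by -2.51 (log2, SE 0.33, edgeR adjusted p = 1.38e-06) and from phagocytes by -1.92 (SE 0.36, edgeR adjusted p = 0.000175). With no UMI among 762438 UMIs of choroid plexus cells, a count of 0 allows up to 3.93 CPM over the group (3 counts), and all microglia libraries lay above that. After thinning each cell to 2000 UMIs, Nlrc5 had a UMI in 12.4%, 2.47% and 1.17% of microglia, in 28.1%, 15.7% and 13.6% of T cells and in 0 of 26, 46 and 87 choroid plexus cells.

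Psmb9 replaces the constitutive subunit Psmb6 in the immunoproteasome. It was at 102, 78.7 and 87.0 CPM in microglia, 317, 95.2 and 181 CPM in phagocytes, 205, 181 and 272 CPM in T cells and 422, 127 and 121 CPM in neutrophils. All 3 of these classes lay above microglia within each library, by 1.04 for phagocytes on the log2 scale (SE 0.32, edgeR adjusted p = 0.0123), 1.43 for T cells (SE 0.31, edgeR adjusted p = 0.00051) and 1.45 for neutrophils (SE 0.35, edgeR adjusted p = 0.00158). Without niacin replicate 2 the difference from phagocytes was no longer called (edgeR adjusted p = 0.0758). Psmb9 UMIs per Psmb6 UMI were 1.41, 0.792 and 0.892 in microglia and 3.0, 1.58 and 2.20 in T cells. Choroid plexus cells had 2, 0 and 4 Psmb9 UMIs against 29, 32 and 122 of Psmb6.

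Across the 10 genes, 8 were lower in microglia than in infiltrating phagocytes, where 19.0% of the 7379 genes tested were lower, with a median log2 fold change of -1.33 against 0.15 over all genes. With any 1 library left out, 6 to 7 were lower than in phagocytes. Against T cells 9 of 10 were lower (22% of all genes), with a median of -1.25 against 0.06, and Tapbp was the exception at -0.27 (SE 0.25, edgeR adjusted p = 0.400). This count was 6 without niacin replicate 1 and 5 without niacin replicate 2, since the calls of B2m, H2-T23 and Tap2 were lost with either library left out, and that of Tap1 with replicate 2. Against neutrophils 2 of 10 were lower (18.0% of all genes), H2-D1 by -1.32 (SE 0.25, edgeR adjusted p = 0.000183) and Psmb9. Against choroid plexus cells 10 of 10 were higher (38.9% of all genes), from 1.10 for Tap2 (SE 0.38, edgeR adjusted p = 0.0151) to 3.21 for H2-D1 among the genes detected in both. The last count was 9 without either niacin library, when Tap2 was not called. With shared barcodes kept, the counts were 9, 7, 2 and 9 of 10.

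At equal depth the order of infiltrating phagocytes, T cells, microglia and choroid plexus cells also held for the median cell of each library. Of 2000 UMIs per cell, the median microglia cell had 13, 8 and 8 UMIs of the 10 genes, the median phagocyte 29, 26 and 28, the median T cell 24, 23 and 23, the median neutrophil 25, 10 and 8.5 and the median choroid plexus cell 2.5, 1 and 1. The 90th percentile of microglia reached 32, 14 and 19 UMIs, so in the vehicle library the 90th percentile of microglia exceeded the median phagocyte. Thinning left out cells with fewer than 2000 UMIs (151, 200 and 350 microglia). These cells belong to 3 libraries and are not replicates, so no test was made on them.

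**Figure D2:**
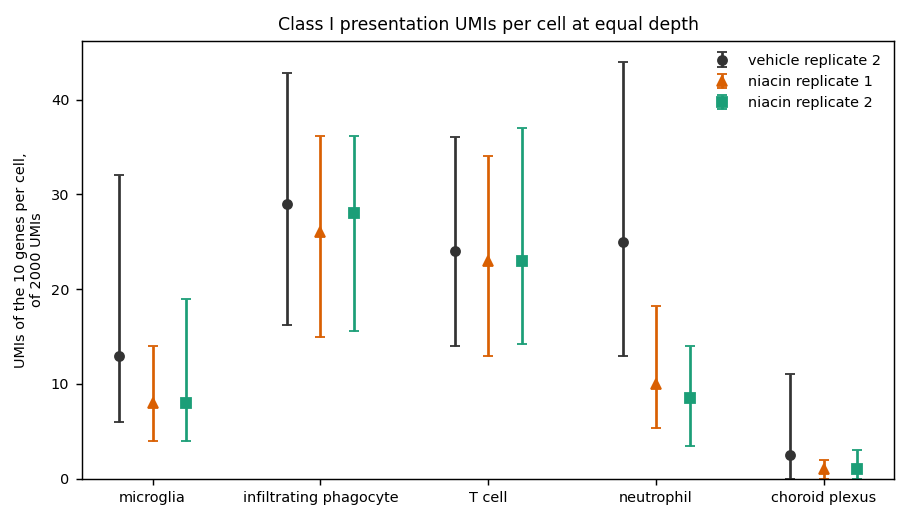
UMIs of the 10 genes per cell after thinning each cell to 2000 UMIs (linear axis from 0), as the median (point) with the 10th and 90th percentile (bars) for each class and library. Phagocyte and T cell medians lie between 23 and 29 UMIs in all libraries, and neutrophils of the vehicle library (median 25) lie above those of the niacin libraries (10 and 8.5).

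Which class supplied class I RNA differed by gene and library. Microglia held 26.9% of the H2-K1 UMIs of the used cells in the vehicle library and 44.3% and 46.6% in the niacin libraries. For H2-Q7 the larger source was T cells, with 43.9%, 58.9% and 58.5% of its UMIs. Infiltrating phagocytes held 43.4% of Tap1 UMIs in the vehicle library and 8.90% and 11.2% in the niacin libraries. These shares depend on how many cells of each class were captured as well as on the level per cell. Microglia were 36.0%, 65.5% and 67.5% of the used cells, infiltrating phagocytes 19.3%, 4.05% and 3.43% and T cells 15.4%, 9.52% and 8.71%.

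In microglia, niacin libraries had lower levels of most class I genes than the vehicle library. H2-K1 was at 1816 CPM with vehicle and at 898 and 1001 CPM with niacin, B2m at 3288 against 1453 and 1776 CPM, H2-Q7 at 195 against 59.3 and 79.8 CPM and Nlrc5 at 50.9 against 11.9 and 8.44 CPM. For all 10 genes the vehicle library lay above both niacin libraries. In the edgeR quasi-likelihood test of 2 niacin libraries against 1 vehicle library, which assumes that vehicle libraries vary like niacin libraries, 7 of 10 genes were lower with niacin and none higher, where 8.52% of the 10613 genes tested were lower and 8.89% higher, and the median of the 10 was -0.80 against 0.01 over all genes.

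The calls covered the regulator, the light chain, 3 heavy chains and 2 loading genes. Nlrc5 changed by -2.28 (log2, SE 0.28, edgeR adjusted p = 3.31e-14), H2-Q7 by -1.36 (SE 0.16, edgeR adjusted p = 8.63e-16), Tap1 by -1.07 (SE 0.17, edgeR adjusted p = 1.95e-08) and B2m by -0.93 (SE 0.14, edgeR adjusted p = 1.11e-08). H2-K1 followed with -0.84 (SE 0.15, edgeR adjusted p = 1.63e-06), Tapbp with -0.75 (SE 0.16, edgeR adjusted p = 8.87e-05) and H2-D1 with -0.40 (SE 0.15, edgeR adjusted p = 0.047), the last of which was lost at 7 alternative settings. Without niacin replicate 2 the log2 ratio of H2-D1 CPM was -0.61, a value without the scaling between libraries that edgeR applies. H2-T23 (-0.38, SE 0.16, edgeR adjusted p = 0.0883), Tap2 (-0.36, SE 0.16, edgeR adjusted p = 0.113) and Psmb9 (-0.20, SE 0.17, edgeR adjusted p = 0.441) were not called. With shared barcodes kept 10 of 10 were called, and DESeq2, which gave an adjusted p to 5 of the 10 genes, called 3 (H2-K1, B2m and Tapbp).

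The interferon-stimulated markers moved with this difference. All 10 of them (Ifit1, Ifit2, Ifit3, Isg15, Rsad2, Oasl2, Usp18, Ifi204, Rtp4 and Cxcl10) were higher in vehicle microglia than in both niacin libraries, with a summed level of 508 CPM against 127 and 198 CPM. Infiltrating phagocyte markers in microglia were at 280 CPM against 139 and 130 CPM, higher with vehicle for 14 of 17. The part of either in the class I difference was not tested. Among microglia of at least 2000 UMIs, the depth used to score these markers (151, 200 and 350 cells were left out), 6 of 10 genes were lower with niacin (7.22% of 10406 genes lower), with -2.44 for Nlrc5, -1.36 for H2-Q7 and -0.85 for H2-K1 (log2, edgeR). Leaving out those with at least 2 of the interferon-stimulated markers gave 6 of 10 (3.77% of 10334 genes lower), while cells with fewer such markers stayed in. The values were then -2.0 for Nlrc5 (SE 0.35, edgeR adjusted p = 0.00355), -1.22 for H2-Q7 (SE 0.19, edgeR adjusted p = 0.000912) and -0.73 for H2-K1 (SE 0.16, edgeR adjusted p = 0.0133). The fits on microglia of at least 2000 UMIs, with and without those cells, were added after the data were seen. With 1 vehicle pool, niacin and whatever else differed between the pools cannot be told apart.

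T cells were the other class planned for this test. H2-K1 was at 3638 CPM with vehicle and 3959 and 3544 CPM with niacin, H2-D1 at 2138 against 3027 and 2801 CPM and H2-Q7 at 1081 against 1317 and 1254 CPM. B2m (3747 against 2340 and 2734 CPM), Tapbp (463 against 213 and 189 CPM) and Nlrc5 (156 against 74.7 and 74.9 CPM) were at their highest in the vehicle library. On simulated data of the same depth with known differences, the edgeR test made no call in this class either, so a lack of calls here does not show whether the genes differed. On the data it called 0 of 10 genes and 0 of 7971 genes in all (0.0%), of which 903 had an unadjusted p under 0.05, while DESeq2 called 41 genes and none of the 7 class I genes to which it gave an adjusted p. The edgeR count was 1 of the 10 genes with shared barcodes kept, or 3 when each was kept in the library with 90% of its UMIs. The interferon-stimulated markers were at 1235 CPM in vehicle T cells, against 170 and 590 CPM.

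The same comparison in the other 3 classes was added after the data were seen, since some of their libraries hold under 50 cells. In infiltrating phagocytes 6 of 10 genes were lower with niacin (10.4% of 5306 genes): Tap1 at 575 CPM against 125 and 178 CPM (log2 -1.96, SE 0.39, edgeR adjusted p = 1.14e-05), Nlrc5 at 156 against 35.7 and 51.8 CPM (-1.85, SE 0.42, edgeR adjusted p = 0.000205), Tapbp at 864 against 268 and 259 CPM, and Tap2, Psmb9 and H2-T23. The heavy chains H2-K1 and H2-D1 were not called there (edgeR adjusted p = 0.802 and 0.809). Keeping shared barcodes gave 9 of 10 genes called in phagocytes, 9 in neutrophils and 8 in choroid plexus cells. In neutrophils 3 of 9 tested genes were lower (3.68% of 2799 genes), Tap1 at 372 CPM against 29.4 and 28.8 CPM (-3.03, SE 0.58, edgeR adjusted p = 0.000714), H2-K1 at 2689 against 753 and 489 CPM (-1.56, SE 0.44, edgeR adjusted p = 0.0239) and Tapbp. The neutrophil markers themselves summed to 23808 CPM in vehicle neutrophils against 40239 and 63277 CPM, so the cells of this class also differed between libraries. The part of this in the 3 calls was not tested. Without niacin replicate 1, the log2 ratio of CPM was -0.80 for Psmb9 in phagocytes. It was -2.45 for H2-K1 and -2.46 for Tapbp in neutrophils. These ratios lack the scaling between libraries that edgeR applies, so they cannot be set directly against the edgeR values. In choroid plexus cells 3 of 6 tested genes were lower (3.18% of 3174 genes), B2m, H2-K1 and Tapbp. Infiltrating phagocyte markers in these cells were at 792 CPM with vehicle, from 27 cells, against 430 and 306 CPM. Interferon-stimulated markers were at 542 CPM against 42.0 and 88.0 CPM. The part of either in the choroid plexus difference was not tested. DESeq2 called 2 of 10 genes in phagocytes and none in neutrophils or choroid plexus cells, where it called 29 and 11 genes in all.

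**Figure D3:**
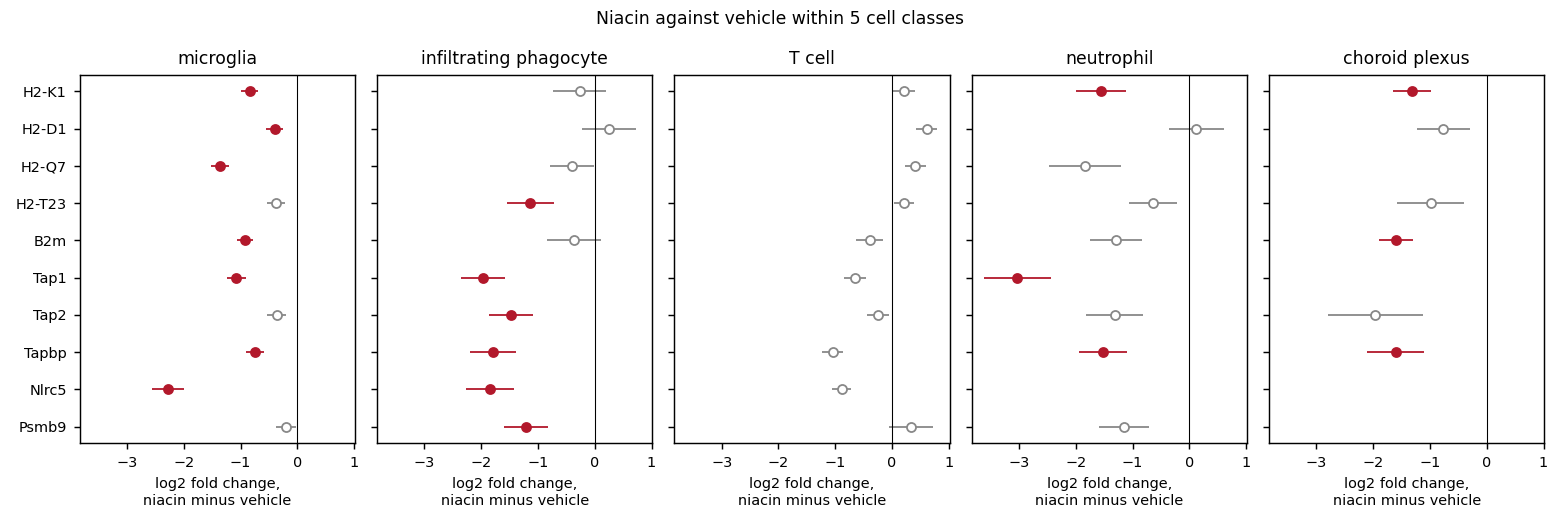
Log2 fold change of niacin against vehicle for each gene within 5 cell classes (x axis, edgeR fit, bars are standard errors, 2 niacin libraries and 1 vehicle library). Filled red points have an edgeR adjusted p under 0.05, open grey points do not, and genes that were not tested are left blank: microglia show 7 filled points, phagocytes 6, T cells none (a class in which the test made no call for any gene) and neutrophils and choroid plexus cells 3 each.

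Phagocyte libraries differed in composition and in interferon markers. Of the 210 vehicle phagocytes used, 117 matched classical monocytes, 42 Arg1 macrophages and 17 nonclassical monocytes by their markers. Of the niacin phagocytes used, 35 of 40 and 35 of 48 matched nonclassical monocytes. With shared barcodes kept, phagocytes numbered 346, 200 and 187, so leaving these barcodes out removed a larger part of the niacin phagocytes. The composition therefore describes the cells used and not all phagocytes captured. The interferon-stimulated markers were at 5168 CPM in vehicle phagocytes against 345 and 640 CPM, and 10 of 10 were higher with vehicle. Within nonclassical monocytes alone, the 6 genes called over all phagocytes were at 247 CPM with vehicle against 104 and 171 CPM for Tap1, 157 against 136 and 97.0 CPM for Tap2, 314 against 266 and 212 CPM for Tapbp, 101 against 26.0 and 55.4 CPM for Nlrc5 (9, 4 and 12 UMIs), 415 against 377 and 323 CPM for H2-T23 and 180 against 97.5 and 212 CPM for Psmb9. H2-K1 was at 3998 against 3404 and 3270 CPM and H2-D1 at 3661 against 3944 and 3843 CPM. The vehicle value was thus the highest for 5 of the 6 genes, lay between the niacin values for Psmb9, and rested on 17 cells. For Tap2, Tapbp and H2-T23 it came from 14, 28 and 37 UMIs. Its Poisson intervals (85.9 to 264, 209 to 454 and 293 to 573 CPM) held both niacin values of these genes. For Tap1 and Nlrc5 the vehicle interval (155 to 374 and 46.2 to 192 CPM) held the value of niacin replicate 2 but not that of replicate 1. A niacin difference within this subset was not tested.

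Whether the niacin difference itself changed with the class was tested as an interaction in a fit of all 5 classes, also added after the data were seen. Relative to microglia, the difference was more negative in phagocytes for Tap2 by -1.24 (log2, SE 0.39, edgeR adjusted p = 0.0296) and Tapbp by -1.14 (SE 0.36, edgeR adjusted p = 0.0304), where 3.84% of 9135 genes passed in that direction and the median of all genes was -0.20. It was more positive in T cells for H2-Q7, by 1.75 (SE 0.35, edgeR adjusted p = 0.000418), where 0.504% of genes passed. It was more negative in neutrophils for Tap1, by -2.18 (SE 0.61, edgeR adjusted p = 0.0228), where 1.27% passed and the median of all genes was -0.21. None of the 10 genes passed in choroid plexus cells, where 0.131% of genes did. No interaction of H2-K1 passed in phagocytes (adjusted p = 0.704), T cells (0.467) or neutrophils (0.359), so a difference between classes was not shown for H2-K1 by edgeR.

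Within microglia, cells with interferon-stimulated markers had more class I RNA than other cells of the same library. A cell counted as interferon-positive with at least 2 of the 10 markers among 2000 thinned UMIs, which held for 45 of 241 vehicle cells (18.7%, exact binomial 95% interval 14.0 to 24.2%) and for 7 of 446 (1.57%, 0.633 to 3.21%) and 20 of 596 niacin cells (3.36%, 2.06 to 5.14%). H2-K1 was at 2675, 2280 and 2140 CPM in positive cells and at 1606, 866 and 944 CPM in the rest. Nlrc5 was at 138, 87.7 and 42.1 CPM against 33.9, 9.06 and 7.12 CPM. Positive cells were higher in 3 of 3 libraries for each of the 10 genes, and for H2-K1 and H2-D1 every positive library lay above every library of the rest.

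The paired edgeR test, with library as a block, called 7 of 10 genes higher in interferon-positive microglia, where 1.80% of 8493 genes were higher. Their median was 0.96 against -0.08 over all genes. Nlrc5 rose by 2.32 (log2, SE 0.46, edgeR adjusted p = 4.48e-05), H2-Q7 by 1.35 (SE 0.25, edgeR adjusted p = 9.65e-06), Tap1 by 1.10 (SE 0.28, edgeR adjusted p = 0.00573), H2-D1 by 1.09 (SE 0.17, edgeR adjusted p = 5.76e-08) and H2-K1 by 1.07 (SE 0.18, edgeR adjusted p = 1.88e-07). B2m (0.85, SE 0.17, edgeR adjusted p = 3.92e-05) and H2-T23 (0.85, SE 0.21, edgeR adjusted p = 0.00371) also rose, and Tap2, Tapbp and Psmb9 were not called, at 0.56, 0.37 and 0.50. The count was 5 without the vehicle library, 4 without niacin replicate 2 (which lost H2-Q7, H2-T23 and Tap1), 3 when the state was chosen on 1000 UMIs and 1 when the thinned counts themselves were summed, with positive values throughout for the genes that could be tested. Nlrc5 was at 2.80 without the vehicle library but not called (edgeR adjusted p = 0.513), and with thinned counts it was too low to be tested. With shared barcodes kept it was 8.

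**Figure D4:**
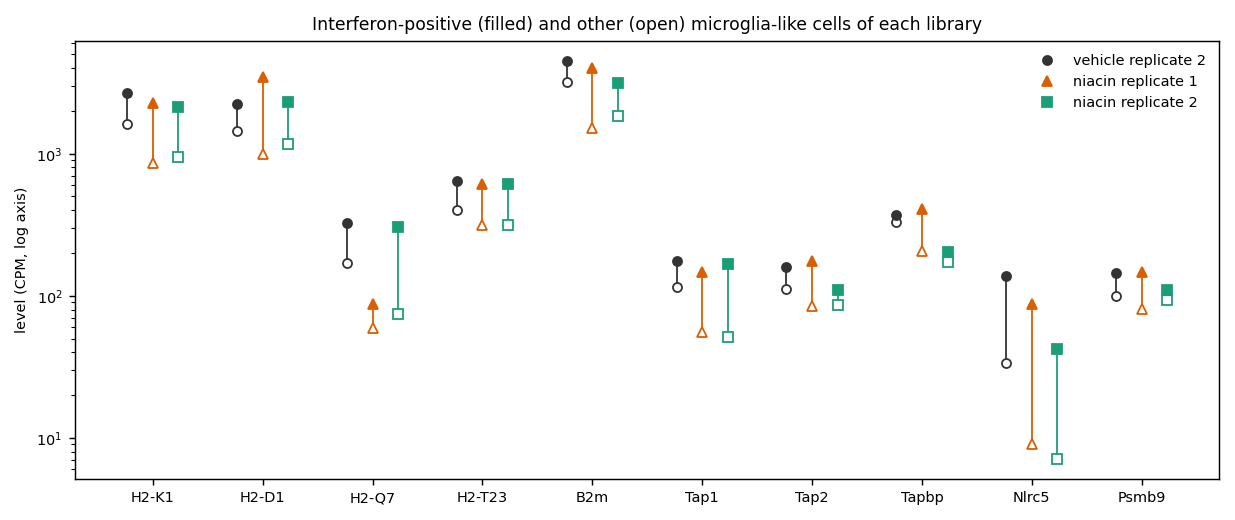
Level in CPM (log axis) of each gene in microglia with at least 2 interferon-stimulated markers (filled) and in all other microglia (open) of the same library, joined by a line. The filled point is the upper one in all 30 pairs, and the gap is widest for Nlrc5 (138, 87.7 and 42.1 CPM against 33.9, 9.06 and 7.12 CPM).

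In phagocytes the same split gave 102 of 133, 1 of 29 and 9 of 39 positive cells, and 0 of 10 genes were called by edgeR (0.872% of 3668 genes were higher, 215 genes had an unadjusted p under 0.05) or by DESeq2. The edgeR count was 1 when shared barcodes were kept. Nlrc5 was at 172, 309 and 111 CPM in positive phagocytes, of which the second value comes from a single cell, and at 59.3, 27.3 and 30.8 CPM in the rest. Microglia with at least 3 of 9 activation markers (such as Cst7, Itgax and Spp1) were rare, with 14, 4 and 5 cells. B2m alone was called higher in them, at 6907, 3197 and 4492 CPM against 3258, 1551 and 1881 CPM (log2 0.85, SE 0.25, edgeR adjusted p = 0.0482, where 0.626% of 8304 genes were higher). That call was lost without the vehicle library (0.76) and without niacin replicate 2 (0.83). By the same test 4 genes were called without niacin replicate 1 and 7 with shared barcodes kept. H2-K1 was at 3202, 1320 and 2393 CPM in these cells against 1724, 885 and 973 CPM and was not called (edgeR adjusted p = 0.298).

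Other genes of the pathway were counted from lists drawn up for the route. Of the regulators, 5 of 10 were lower with niacin in microglia (8.52% of all genes) and none higher (8.89%), among them Irf1 at 255 CPM against 87.5 and 88.7 CPM (log2 -1.44, SE 0.16), Irf7 (-2.46, SE 0.33), Ciita, the class II transactivator (-3.24, SE 0.40), and Nfkb1 (-0.53, SE 0.16). The subunits of the X-box binding complex Rfx5, Rfxap and Rfxank were not called. The list's median was -0.47 against 0.01 over all genes. Irf1 and Irf7, interferon regulatory factors, thus moved in the same direction as Nlrc5 in the same libraries.

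The proteasome was measured through 7 other subunits and activators. None of the 4 immunoproteasome and PA28 genes (Psmb8, Psmb10, Psme1 and Psme2) was called between niacin and vehicle in microglia by edgeR, and their median was 0.09. The constitutive subunits Psmb5 (0.72, SE 0.19, edgeR adjusted p = 0.00264) and Psmb6 (0.53, SE 0.18, edgeR adjusted p = 0.0238) were higher with niacin (8.89% of all genes), at 58.0 against 79.6 and 96.7 CPM and at 72.6 against 99.3 and 97.4 CPM. Between classes, 4 of 4 immunoproteasome and PA28 genes were lower in microglia than in phagocytes (19.0% of all genes) and than in T cells (22% of all genes), by medians of -1.07 and -1.23. In choroid plexus cells all 3 constitutive subunits were higher than in microglia, by 1.69 to 2.35 on the log2 scale (25.3% of all genes).

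Of the other class I and class I-like heavy chains, 10 of 14 could be tested between niacin and vehicle in microglia. H2-Q6 (-1.21, SE 0.19) and H2-T22 (-0.70, SE 0.23) were lower, and Cd1d1, which presents lipids (1.13, SE 0.39), H2-Q10 (1.28, SE 0.28) and Hfe, which regulates iron uptake (0.49, SE 0.18), were higher, all by edgeR at an adjusted p under 0.05 (8.52% of all genes were lower and 8.89% higher), and the median was 0.13. This group therefore split by gene. Of the 7 peptide loading and trimming genes, Canx was lower (-0.50, SE 0.16) and Pdia6 higher (0.51, SE 0.17), and the median was 0.01. Against T cells, 5 of these 7 were higher in microglia, where 26.7% of all genes were higher, among them the chaperone Calr (1.33, SE 0.26) and Canx (1.65, SE 0.26), opposite to the direction of the 9 class I presentation genes called in that comparison. Of the class I receptors, Cd8a was lower in microglia than in T cells by -7.89 (SE 0.37) and Pirb was higher by 3.52 (SE 0.49).

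Over the 15 sums of 5 classes and 3 libraries, the 10 genes varied together, with Pearson's r between pairs from 0.634 to 0.961 on log2(CPM + 10). The genes outside the group whose levels were most like the mean of the 10 were Ugcg (r = 0.961), Ifi35 (0.959), Sp110 (0.959), Parp14 (0.958) and Lsm14a (0.955). For Nlrc5 they were Zc3hav1 (0.949), H2-T22 (0.947), Slc20a1 (0.941), Tes (0.940) and H2-Q6 (0.939). The sums share libraries, classes and depth, so these correlations describe the 15 sums and carry no test.

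Some reads of H2-T23 could belong to other loci, since 12.9% of the 91-base windows in its last 500 bases also occur in H2-T-ps, Hook2 or Rab33b. No other member shared such a window. Psmb9 overlaps Tap1 and B2m overlaps Patl2 on the opposite strand, and Tapbp overlaps Zbtb22 on the same strand.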

How the data were processed

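Droplet libraries of RNA 3′ ends (10x, v3.1 chemistry) were made from live cells sorted after Percoll enrichment of brain tissue around the tumor. The authors made the gene counts with Cell Ranger 3.1 and STAR against mm10 (GRCm38), and the deposited matrices hold whole UMI counts per gene and barcode, with no normalization and no cell annotation. The 10 genes and all lists were chosen with earlier results of these data known.

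Barcodes with at least 200 genes and at most 20% mitochondrial UMIs, and found in a single library, were kept. A class needed 3 or more UMIs from 2 or more of its markers and 2 times the level of the next class. Scrublet marked 0.470% of cells, below a usable rate, so doublets were kept. Counts were summed per class and library (UMI totals of the cells used were 4212459, 3417307 and 6068507) and tested with edgeR 4.0.16 in R 4.3.3 (TMM, quasi-likelihood, Benjamini-Hochberg adjustment over all genes, called under 0.05). DESeq2 1.42.0 was an alternative. Class and state tests had the library as a block, since both sums come from the same library. Each library is 1 pool, so p-values measure the spread between libraries only. In the niacin tests the 1 vehicle library has no spread of its own. Their p-values therefore rest on the 2 niacin libraries and on a spread that edgeR shares across genes, and vehicle pools may vary more. Intervals and floors (3 counts) cover counting error only. Cells were thinned to 2000 UMIs for per-cell values. Scripts were tested on simulated data. Named genes were the 10 members and the pathway lists. Promoters came from RefSeq (GRCm38.p6). Tap2 and Nlrc5 had no entry used here. The values of 1 listed regulator are not reported here.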

Additional observations from a re-analysis of the deposited data

Results flagged for a closer look

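The niacin difference in 4 genes differed between classes by a test of the difference itself (edgeR interaction with microglia, 1 vehicle library, chosen after the data were seen). For Tap2 the difference in infiltrating phagocytes was lower than that in microglia by a log2 value of -1.24, and for Tapbp by -1.14. Among the cells used, vehicle phagocytes were mostly classical monocytes (117 of 210) and niacin phagocytes nonclassical (35 of 40 and 35 of 48). With shared barcodes kept there were 346, 200 and 187 phagocytes. Within nonclassical monocytes Tap2 was at 157 CPM with vehicle against 136 and 97.0 CPM and Tapbp at 314 against 266 and 212 CPM. Both niacin values of each gene lay within the Poisson interval of the vehicle value (85.9 to 264 and 209 to 454 CPM). The interaction was not tested within this subset. For H2-Q7 the difference in T cells was higher by 1.75: H2-Q7 was lower with niacin in microglia and was at 1081 CPM with vehicle and 1317 and 1254 CPM with niacin in T cells. For Tap1 the difference in neutrophils was lower by -2.18, from 52, 3 and 5 UMIs in the vehicle library and the 2 niacin libraries. The neutrophil markers in these cells summed to 23808 CPM with vehicle against 40239 and 63277 CPM. The vehicle library also held more interferon-stimulated marker RNA in each of these classes, with 5168 CPM in phagocytes, 1235 CPM in T cells and 7946 CPM in neutrophils against 508 CPM in microglia, and the part of this in the 4 values was not tested.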

How the results depend on the processing

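No paired analysis of niacin and vehicle was possible with only 1 vehicle library, and the labels do not say that equal replicate numbers mark a pair. The class and state tests have a library block. Without the block the microglia against T cell count of called genes was 5 in place of 9 and that of interferon-positive phagocytes 1 in place of 0.

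Leaving out 1 library gave 6 to 7 genes lower in microglia than in infiltrating phagocytes and 5 to 9 lower than in T cells. It gave 4 to 7 genes higher in interferon-positive microglia, 0 to 1 in interferon-positive phagocytes and 0 to 4 in activated microglia. With DESeq2 the niacin count was 3 in microglia in place of 7, 2 in phagocytes in place of 6 and 0 in neutrophils and choroid plexus cells in place of 3 each, and the state counts were 4 for interferon and 4 for activation. With shared barcodes kept, or kept in the library with 90% of their UMIs, the niacin counts were 1 and 3 in T cells (in place of 0), 9 and 6 in neutrophils and 8 and 8 in choroid plexus cells, and those for activation 7 and 4. With them kept, interferon-positive phagocytes gave 1. At most 10% mitochondrial UMIs gave 4 in T cells, 1 in choroid plexus cells and 0 for activation. A stricter class rule gave 1 in T cells, 1 in neutrophils, 0 in choroid plexus cells and 0 for activation. Leaving out mitochondrial genes gave 0 in neutrophils. At least 500 genes gave 0, and no gene filter 1, in choroid plexus cells. The activation count was 0 with a looser class rule, without the highest Scrublet scores, at 1000 UMIs, with thinned sums and with no gene filter, and 4 at 4000 UMIs and with RLE scaling. The interferon count in microglia was 3 at 1000 UMIs and 1 with thinned sums. The causes were not tested.

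The summed level was 11921 CPM in phagocytes and 11602 CPM in T cells with shared barcodes kept, and 11572 CPM in T cells at 10% mitochondrial UMIs. B2m per H2-K1 plus H2-D1 in phagocytes was 0.801 with shared barcodes kept. Psmb9 per Psmb6, with shared barcodes kept or kept by 90%, was 2.28 and 2.45 in neutrophils and 0.141 and 0.171 in choroid plexus cells. The share of cells with Tap1 was 25.4% in microglia at 4000 UMIs, and 16.4% and 49.1% in T cells at 1000 and 4000 UMIs, and that with Nlrc5 was 30.8% in T cells at 4000 UMIs. The other 239 such values were within 1.5 times the count as reported or within the spread. No called gene changed direction at these alternatives. The single vehicle library, small classes and low counts of Nlrc5, Tap1 and Psmb9 limit these results.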
